A study of Mus musculus with 3 samples.

Results

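The genes described here encode the nuclear-encoded subunits of oxidative phosphorylation, with a few of their assembly factors and relatives, in lymphocytes of the mouse colon. They were taken from the gene list of the deposited matrices as every symbol that starts with Nduf, Uqcr, Atp5 or Cox4 to Cox8, which gave 88 of 30905 genes, and no such symbol carried the mark of a pseudogene (-ps). Of the 88, 36 encode subunits of complex I, 8 encode complex I assembly factors (Ndufaf genes), 8 belong to complex III, 18 to complex IV and 15 to ATP synthase. The remaining 3 are relatives of subunits, namely Cox7a2l, Ndufa4l2 and Atp5s. Ndufa4, named for complex I, was counted with complex IV, of which its protein is a subunit.

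Oxidative phosphorylation takes place in the inner mitochondrial membrane. Complex I takes electrons from NADH, complex III passes them from ubiquinol to cytochrome c, and complex IV hands them to oxygen. These complexes pump protons, and ATP synthase uses the return flow of protons to make ATP. A small core of the subunits is encoded by mitochondrial DNA, and all the genes described here lie on nuclear chromosomes, so their mRNAs are translated in the cytosol and their proteins imported. Lymphocytes that divide or secrete antibody are known to enlarge their mitochondrial machinery, whereas resting lymphocytes run on less.

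CD45+ leukocytes, sorted from the colon of C57BL/6 mice, were made into 10x Genomics 3′ libraries in which each transcript molecule carries a molecular identifier (UMI). There was 1 library for each of 3 groups: healthy colon (C), colon with low-grade intraepithelial neoplasia (T1) and colon with high-grade intraepithelial neoplasia (T3). The labels give an age of 6 to 8 weeks for all groups, C included, which for T1 and T3 is the age at which the model was begun. For T1 and T3 they give azoxymethane (AOM), a carcinogen, at 12 mg/kg. Then came 3 cycles of 7 days of 2.5% dextran sodium sulfate (DSS), an irritant of the colon lining, and 14 days of water. AOM with DSS and neoplasia therefore cannot be told apart in a comparison with C, the number of mice behind a library is not stated in the labels, and with 1 library per group no test between groups was possible.

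The libraries held 7903, 8566 and 5779 barcodes with 35489195, 37208603 and 15898397 UMIs in C, T1 and T3. After barcodes with fewer than 200 genes or more than 20% mitochondrial UMIs were left out, 3551, 4036 and 1882 barcodes fell into 7 classes gated on marker transcripts. Every library carried Xist (23366 to 51332 UMIs) and 1 UMI of Y-linked genes, which goes against the label that the mice were male. Between 35 and 39 barcode sequences were shared by any pair of libraries. Doublets were not removed. In C, 1 germinal centre, 1 Trdc and 1 Foxp3 barcode carried 934, 709 and 488 UMIs of the mast cell genes Cpa3 and Mcpt1. Library T3 stood apart in depth and in haemoglobin, which touch all its values. The median over barcodes that passed was 1803 UMIs in T3, against 4933 in C and 5272 in T1. In the 5 larger classes 71.7% to 82.4% of T3 barcodes carried a haemoglobin UMI, against at most 1.79% of the same classes in C and T1.

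The classes were plasma barcodes (68, 60 and 4 in C, T1 and T3), germinal centre B barcodes (161, 104 and 8), other B barcodes (2401, 2774 and 845), and T barcodes with a CD3 UMI and a UMI of Cd4 (319, 547 and 501), Cd8b1 (283, 257 and 403), Trdc, the delta chain of the gamma-delta T cell receptor (263, 83 and 51), or Foxp3, the factor of regulatory T cells (56, 211 and 70). The 4 plasma and 8 germinal centre barcodes of T3 are too few to be read for conditions, and their values are given only for completeness. In plasma barcodes immunoglobulin transcripts made up 59.3%, 57.2% and 36.3% of the UMIs in C, T1 and T3, against at most 1.44% in any other class. Levels are therefore given as CPM (UMIs of a gene over 1000000 UMIs) of the UMIs that remain without immunoglobulin and mitochondrially encoded genes.

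Of the 704442 member UMIs in these classes, ATP synthase took 31.8%, complex IV 26.6%, complex I subunits 25.8%, complex III 11.02%, the assembly factors 1.07% and the 3 relatives 3.68%. In these classes 8 members had under 100 UMIs, and 3 of those, Cox7b2, Cox8b and Cox8c, had 0 UMIs in all barcodes of all libraries. Of the 8, 7 belong to complex IV and are copies known from other tissues, such as Cox8b of heart and muscle. The other is Ndufa4l2, a relative of Ndufa4 induced by low oxygen, with 3 UMIs.

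Many respiratory genes are read from short promoters without a TATA box, in which sites of the factors NRF1, of the ETS family (GABP) and of YY1 are common. The RefSeq promoters (build GRCm38.p6, 250 bases before to 50 after the start) of 73 of the 88 members were matched. The NRF1 consensus, searched in the letters shown in capitals in the Atp5g2 stretch, which read the same on both strands, stood in 7 of these 73, or 9.59%, against 1.47% of 17491 protein-coding genes. On either strand, CCGGAAG (ETS) stood in 16, or 21.9%, against 12.9%, and the YY1 consensus in 6, or 8.22%, against 1.41%. The last 3 letters of the ETS motif are the first 3 of the YY1 motif, so their matches can overlap. The NRF1 or the ETS letters, counted once per gene, stood in 21, or 28.8%, against 14.1%. A match is a description of the sequence and not of binding. The 90 bases before the RefSeq start are shown for some of the members named below, with matches in capitals. The same stretches of Ndufs5 and Cox7a1, also named below, held none of the 3 motifs and are not shown. Ndufa1, Ndufa4 and Uqcr11 are the members with the largest fold change in plasma against other B barcodes among those with a listed promoter, Cox6b1 and Atp5g2 were higher in germinal centre barcodes, and Cox7a2l and Uqcrh were lower in plasma barcodes. A RefSeq start can differ from the end of the gene in the GRCm38 annotation, and the stretches of Cox7a2l and Atp5g2 lie inside their annotated genes, while those of Ndufa4, Uqcr11, Cox6b1 and Uqcrh overlap the annotated 5′ end.
Ndufa1 (chrX:37191239-37191328, minus strand): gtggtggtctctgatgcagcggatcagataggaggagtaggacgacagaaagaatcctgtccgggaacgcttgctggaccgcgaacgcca
Ndufa4 (chr6:11907451-11907540, minus strand): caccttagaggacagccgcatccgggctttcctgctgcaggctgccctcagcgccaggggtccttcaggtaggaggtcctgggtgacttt
Uqcr11 (chr10:80406822-80406911, minus strand): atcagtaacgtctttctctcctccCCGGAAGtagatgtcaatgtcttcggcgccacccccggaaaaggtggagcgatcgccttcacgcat
Cox6b1 (chr7:30626115-30626204, minus strand): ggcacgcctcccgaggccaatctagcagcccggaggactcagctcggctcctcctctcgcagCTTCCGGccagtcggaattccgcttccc
Atp5g2 (chr15:102671048-102671137, minus strand): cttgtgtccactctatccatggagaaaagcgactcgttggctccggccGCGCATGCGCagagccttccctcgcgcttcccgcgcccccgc
Cox7a2l (chr17:83514334-83514423, minus strand): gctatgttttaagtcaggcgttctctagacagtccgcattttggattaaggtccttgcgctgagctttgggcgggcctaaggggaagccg
Uqcrh (chr4:116075071-116075160, minus strand): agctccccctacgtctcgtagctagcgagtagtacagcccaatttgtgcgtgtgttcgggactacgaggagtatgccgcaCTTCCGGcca
In capitals, Uqcr11 holds the ETS letters in the gene's direction, Cox6b1 and Uqcrh hold them on the other strand, and Atp5g2 holds the NRF1 letters. Both the raised member Uqcr11 and the lowered member Uqcrh carry the ETS letters, and the stretches of Ndufa1, Ndufa4 and Cox7a2l hold none of the 3 motifs.

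The summed level of the 88 members set plasma and germinal centre barcodes apart from all other classes. It was 26991, 28378 and 24878 CPM in plasma barcodes of C, T1 and T3, and 24876, 23419 and 18866 CPM in germinal centre barcodes. Other B barcodes had the lowest levels in each library, at 13301, 12769 and 10959 CPM. The T classes lay between, with Cd4 at 17157, 17257 and 12682, Cd8b1 at 17683, 15442 and 12639, Trdc at 19504, 18965 and 12723, and Foxp3 at 17782, 18151 and 15423 CPM. The 95% Poisson intervals, which cover counting error only, reach from 24647 to 25106 CPM for germinal centre barcodes of C and from 13231 to 13372 CPM for other B barcodes of C. Within T3 the Cd4, Cd8b1 and Trdc levels did not differ beyond counting error, with intervals from 12536 to 12830, from 12492 to 12788 and from 12229 to 13232 CPM.

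**Figure D1:**
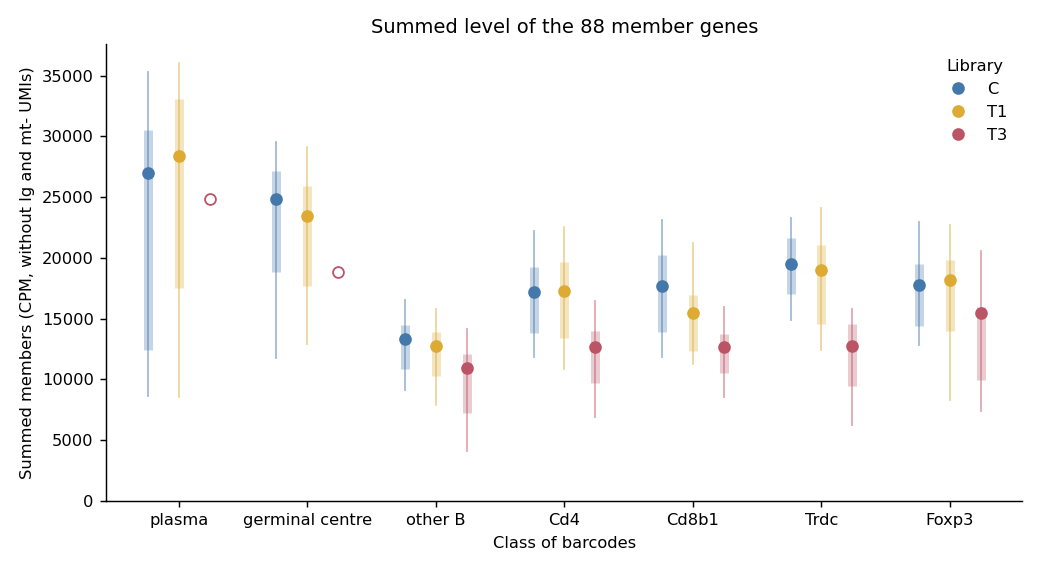
Summed level of the 88 members in each class (x axis) and library (colours), in CPM of UMIs without immunoglobulin and mitochondrially encoded genes. Points are levels over all barcodes of a class, thick bars the middle 50% and thin bars the 10th to 90th percentile of single barcodes, and open points classes under 20 barcodes (no bars); plasma and germinal centre points of C and T1 lie between 23419 and 28378 CPM, other B points between 10959 and 13301.

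Single barcodes varied most in the plasma class, where the 10th, 50th and 90th percentiles were 8591, 24988 and 35312 CPM in C. Plasma barcodes with at least 5000 UMIs (54 of 68 in C, 42 of 60 in T1) had 27463 and 29165 CPM, and those with fewer had 15878 and 11937 CPM. In T1 the level of the shallow plasma barcodes (interval 10366 to 13679 CPM) was not above that of other B barcodes, at 12769 CPM. The median mitochondrial share was 5.38% and 6.73% in the shallow barcodes, against 2.49% and 2.71% in the deep ones. The epithelial genes Epcam, Krt8, Krt19 and Lgals4 summed to 156 and 145 CPM in the plasma class of C and T1. In the other classes they summed to at most 37.7 CPM. In plasma barcodes of C and T1, Epcam alone stood at 141 and 145 CPM. Krt8 had 8.08 and 0 CPM there, Lgals4 6.06 and 0 CPM, and Krt19 0 CPM in both. Their part in the member levels was not tested. Among germinal centre barcodes, those with a UMI of the division genes Mki67 or Top2a had 25300 CPM in C and 24873 CPM in T1, and those without had 23539 and 20610 CPM. Both groups lay above other B barcodes of the same library. Those without such a UMI were shallower, with a median of 8006.5 UMIs against 13288 in C and 7342 against 8980 in T1. They can include dividing cells, and the part of division in the level was not tested.

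Differences between classes were tested on UMIs summed per class and library over all genes, with the library as a block, in edgeR (quasi-likelihood test, Benjamini-Hochberg adjustment over 10364 genes). Immunoglobulin and mitochondrially encoded genes took part in this fit. It scales the sums by TMM factors (trimmed mean of M-values) and not by the CPM total, so its fold changes can differ from differences in CPM. Of the 88 members, 81 passed the filter on low counts. Plasma and germinal centre sums of T3, from fewer than 20 barcodes, did not enter the fit, so these contrasts rest on C and T1.

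In plasma barcodes, compared with other B barcodes, 61 of the 81 tested members were higher and 2 were lower at an adjusted p under 0.05, where 19.3% of all genes tested were higher and 20.7% lower. The median log2 fold change of the tested members was 0.81, against -0.16 over all genes. By complex, 32 of 36 complex I subunits were higher and 0 lower, 6 of 8 complex III members were higher and 1 was lower, 10 of 12 tested complex IV members were higher, and 11 of 15 ATP synthase members were higher. Of the 8 complex I assembly factors 2 were higher. The edgeR calls use TMM scaling, while the direction in CPM depends on the total against which UMIs are set. Counted over all UMIs, immunoglobulin included, the summed members made up 0.818 times the other B level in C and 0.949 times in T1. On that total 31 of the 61 called higher remained higher on average. Within the UMIs that are not immunoglobulin or mitochondrially encoded, the ratio was 2.03 in C and 2.22 in T1. Without ribosomal protein genes in the total as well, of which 75 of 90 tested were lower in plasma barcodes, it was 1.64 and 1.8, and all 61 kept their direction.

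The members raised most were accessory subunits. Ndufa1, an accessory subunit of complex I encoded on chromosome X (positions 37187588 to 37191163 in GRCm38), had 879, 917 and 827 CPM in plasma barcodes of C, T1 and T3, against 110, 100 and 88.3 CPM in other B barcodes. These groups were far apart in C and T1, and the log2 fold change was 2.75 ± 0.14 (SE) with an edgeR adjusted p of 2.1e-14. Ndufa4, the accessory complex IV subunit, had 1057, 1157 and 827 CPM against 183, 163 and 169 CPM, a log2 fold change of 2.38 ± 0.16. Ndufb9 of complex I had 475, 514 and 318 CPM against 82.2, 79.4 and 65.4 CPM (log2 fold change 2.3 ± 0.17). Uqcr11, a small subunit of complex III, had 412, 437 and 382 CPM against 89.7, 60.6 and 64.2 CPM (2.12 ± 0.17). Ndufs5 of complex I and Uqcrq of complex III followed at log2 fold changes of 2.04 ± 0.17 and 1.96 ± 0.15. Ndufa1, Ndufa4, Ndufb9, Uqcr11, Ndufs5 and Uqcrq were thus higher in plasma barcodes of C and T1. Plasma values of T3, from 4 barcodes, are given only for completeness.

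Of the tested members 2 were called lower. Cox7a2l, whose protein helps to join complexes III and IV into supercomplexes (gene on chromosome 17, positions 83501918 to 83517330 in GRCm38), had 182, 203 and 255 CPM in plasma barcodes and 476, 535 and 427 CPM in other B barcodes. Plasma levels lay below the other B levels in C and T1, with a log2 fold change of -1.63 ± 0.18 and an edgeR adjusted p of 6.0e-08. The plasma value of T3, from 4 barcodes, was not read. In germinal centre barcodes Cox7a2l stood at 652, 682 and 503 CPM, with a log2 fold change of 0.13 ± 0.15 against other B that did not pass the test. Uqcrh, the hinge subunit of complex III, had 552, 703 and 382 CPM against 635, 725 and 567 CPM, and its log2 fold change of -0.40 ± 0.14 (edgeR adjusted p 0.028) was small in CPM, with a mean log2 difference over C and T1 of -0.12. The other complex III members rose or did not pass the test.

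**Figure D2:**
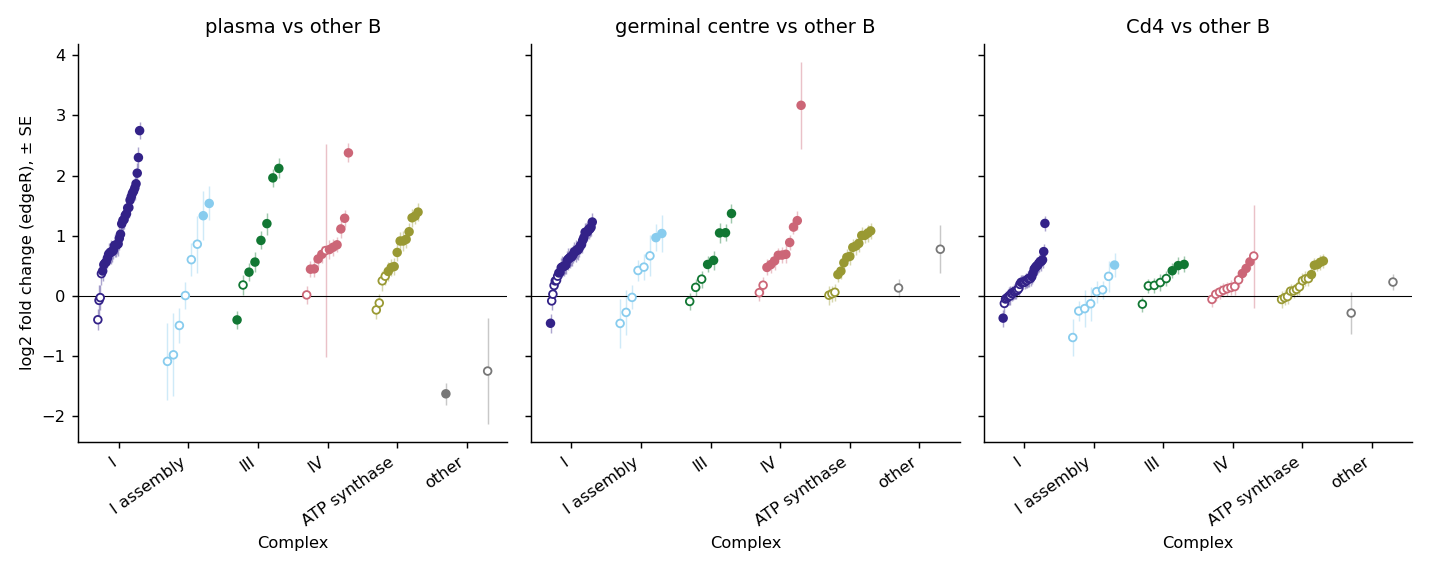
edgeR log2 fold change of each tested member (points, ± SE) by complex (x axis) for plasma, germinal centre and Cd4 barcodes against other B barcodes. Filled points have an adjusted p under 0.05; in the plasma panel all but a few complex I subunits lie above 0 and are filled, while Cox7a2l, the filled grey point, lies at -1.63.

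In germinal centre barcodes, compared with other B barcodes, most members were also higher. Of the 81 tested members 58 were higher and 1 was lower, where 20.4% of all genes tested were higher and 22.3% lower, and the median log2 fold change was 0.65 against -0.14 over all genes. Complex I contributed 29 of 36 subunits, complex III 5 of 8, complex IV 10 of 12 tested, ATP synthase 12 of 15 and the assembly factors 2 of 8. Summed over the members, the germinal centre level was 1.87, 1.83 and 1.72 times the other B level in C, T1 and T3. Without ribosomal protein genes in the total the ratios were 1.74, 1.62 and 1.51. Of the members higher in plasma (61) or germinal centre barcodes (58), 53 were higher in both, and these contrasts share the other B barcodes. The overlap over all genes was not counted, so the 53 are not read as a result about the members. Left without C, the fit called 35 members in place of 59.

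Among members with at least 100 CPM in germinal centre barcodes of C and T1, Uqcr11 had the largest fold change, with 265, 255 and 168 CPM against 89.7, 60.6 and 64.2 CPM (log2 fold change 1.37 ± 0.16, edgeR adjusted p 1.3e-07). Ndufa4 followed with 556, 486 and 503 CPM against 183, 163 and 169 CPM (1.25 ± 0.15). Ndufc2 and Ndufab1 of complex I, the latter also the acyl carrier protein of mitochondria, had log2 fold changes of 1.23 ± 0.14 and 1.14 ± 0.15. Cox6b1, which sits between the monomers of the complex IV dimer, had 730, 701 and 734 CPM against 260, 231 and 197 CPM (1.14 ± 0.12). For Cox6b1 the germinal centre level was above the plasma level of 594 and 543 CPM in C and T1. Ndufa1, which led in plasma barcodes, had 238, 259 and 252 CPM in germinal centre barcodes.

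The 1 member called lower in germinal centre barcodes was Ndufa6 of complex I, with 192, 228 and 273 CPM against 218, 231 and 177 CPM and a log2 fold change of -0.46 ± 0.15 (edgeR adjusted p 0.019). Its levels overlap between the classes, the T3 value from 8 barcodes lay above other B, and the mean log2 difference in CPM over C and T1 was -0.10.

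**Figure D3:**
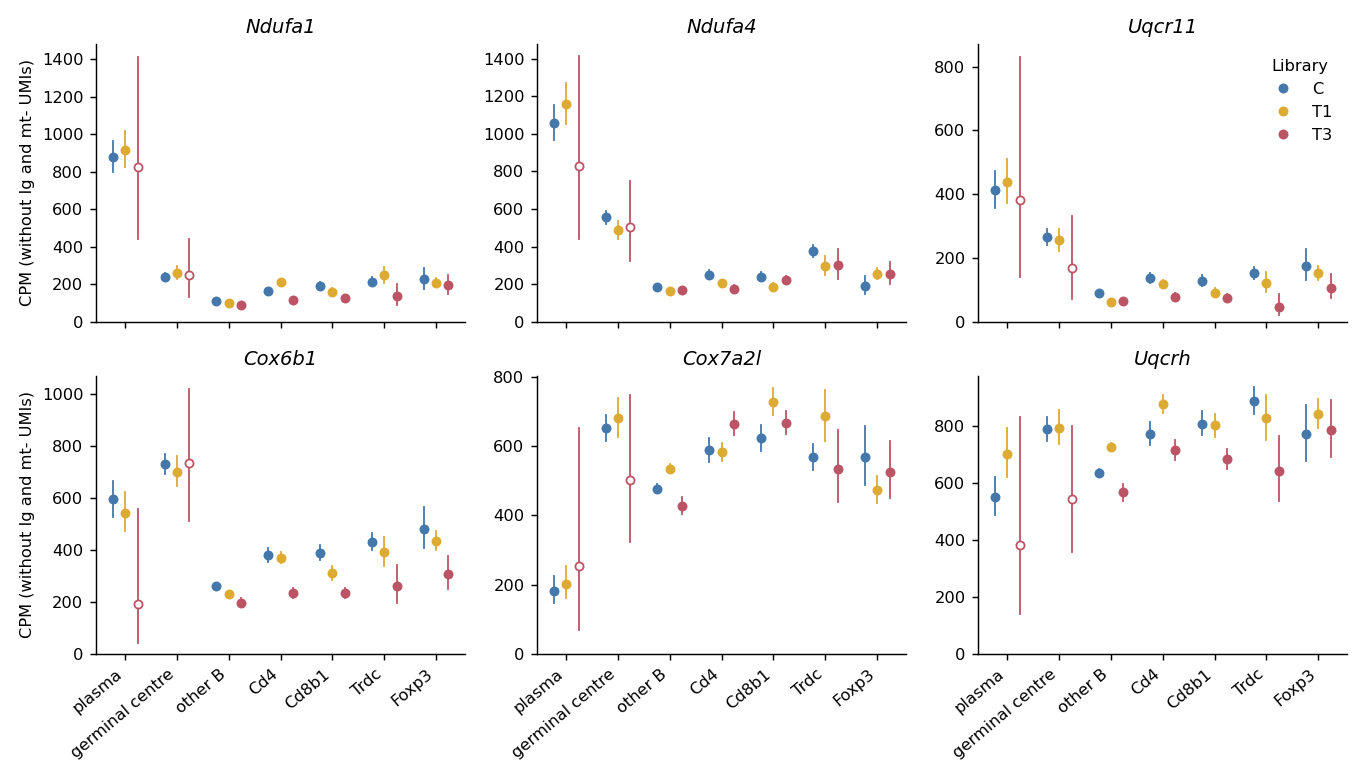
Levels of 6 members in CPM (y axes, each from 0) by class (x axis) and library (colours), with 95% Poisson intervals that cover counting error only. Open points are classes under 20 barcodes. In C and T1, Ndufa1, Ndufa4 and Uqcr11 peak in plasma barcodes, Cox6b1 is highest in germinal centre barcodes, and Cox7a2l is lowest in plasma barcodes.

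Subunits with tissue-restricted partners were read through their common form. Cox4i1, the common form of subunit 4, had 982, 967 and 764 CPM in plasma, 1032, 997 and 797 CPM in germinal centre and 562, 623 and 477 CPM in other B barcodes, and was called higher in both contrasts (log2 fold change 0.45 ± 0.14 and 0.47 ± 0.13). Its partner Cox4i2, of lung and placenta, had 7 UMIs in all classes together. Cox6a1 and Cox7a2, the common forms of subunits 6a and 7a, had log2 fold changes of 1.29 ± 0.14 and 1.11 ± 0.15 in plasma, and 0.68 ± 0.13 and 0.69 ± 0.15 in germinal centre barcodes. Cox8a did not pass the test in either contrast, at 0.01 ± 0.15 and 0.18 ± 0.14. The members with the most UMIs in their groups also included Ndufa2 of complex I, higher in plasma barcodes (0.76) and not called in germinal centre barcodes (0.26), and the ATP synthase epsilon subunit Atp5e, called in neither (0.33 and 0.06).

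The form Cox7a1, known from heart and muscle, had the largest fitted change in germinal centre barcodes (log2 fold change 3.17 ± 0.72, edgeR adjusted p 0.0010) on few molecules. It had a UMI in 10 of 161 germinal centre barcodes of C and 6 of 104 of T1, against 5 of 2401 and 6 of 2774 other B barcodes. In the other classes of C and T1 it was found in 1 of 68 and 0 of 60 plasma, 3 of 319 and 2 of 547 Cd4, 0 of 283 and 1 of 257 Cd8b1, 0 of 263 and 1 of 83 Trdc, and 0 of 56 and 0 of 211 Foxp3 barcodes. Germinal centre barcodes were also deeper, with a median of 10485 UMIs in C against 4584 in other B. In CPM the levels were 6.07 and 6.99 against 0.481 and 0.622 in C and T1, and no UMI was found in the 8 germinal centre barcodes of T3. The testis form Cox6b2 was too low to be tested, and was found in 12 of 161 and 3 of 104 germinal centre barcodes against 5 of 2401 and 4 of 2774 other B barcodes and 5 of 263 and 1 of 83 Trdc barcodes.

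The c ring of ATP synthase is built from 1 protein made from 3 genes, Atp5g1, Atp5g2 and Atp5g3, which differ in their import sequences. Atp5g1 had 471, 508 and 764 CPM in plasma barcodes against 162, 148 and 119 CPM in other B (log2 fold change 1.32 ± 0.14), and Atp5g3 had 327, 292 and 636 CPM against 131, 131 and 116 CPM (0.91 ± 0.16). Atp5g2 had 449, 403 and 255 CPM against 422, 404 and 327 CPM, and its log2 fold change of -0.24 ± 0.15 did not pass the test (edgeR adjusted p 0.21). In germinal centre barcodes all 3 were called higher, at 0.64 ± 0.13, 0.41 ± 0.13 and 1.004 ± 0.14 for Atp5g1, Atp5g2 and Atp5g3.

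Other genes of the organelle were read from lists set up for this purpose. The 13 subunits encoded by mitochondrial DNA did not follow the nuclear members: edgeR called 0 higher and 1 lower in plasma barcodes (2 and 2 at an unadjusted p under 0.05, and 6 higher and 1 lower by DESeq2), and 0 higher and 3 lower in germinal centre barcodes (0 and 3 unadjusted, 0 and 3 by DESeq2). The difference between nuclear and mitochondrially encoded genes was not itself tested, and the limit of 20% mitochondrial UMIs bounds the latter. Of 6 genes of complex II and cytochrome c, 4 were higher in each contrast and 1 was lower in germinal centre barcodes, Cycs by 1.77 and 0.82 and Sdhb by 1.55 and 1.53 on the log2 scale in plasma and germinal centre barcodes. Mitochondrial ribosomal proteins, which translate the mitochondrial mRNAs, were higher for 37 of 77 in plasma and 54 of 77 in germinal centre barcodes, with 3 and 0 lower. The citrate cycle had 5 and 9 of 17 genes higher and 0 and 2 lower. Assembly factors outside the members had 7 and 5 of 29 higher and 0 and 1 lower. Mitochondrial import had 5 and 9 of 20 higher and 4 and 1 lower, and glycolysis 6 and 9 of 14 higher with 4 and 1 lower. Of all genes 19.3% were higher and 20.7% lower in plasma, and 20.4% and 22.3% in germinal centre barcodes. The higher counts of assembly factors in both contrasts, and of citrate cycle and import genes in plasma barcodes, are near these shares. Of 13 tested regulators of respiratory genes 1 was higher and 2 lower in plasma, and 0 higher and 2 lower in germinal centre barcodes (0 and 2 unadjusted, 0 and 2 by DESeq2).

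In Cd4 barcodes, compared with other B barcodes, 24 of 81 members were higher and 1 was lower, where 21.5% of all genes tested were higher and 20.5% lower, and the median log2 fold change was 0.22 against -0.02. The share higher is close to the background. Without C the fit called 15 members, and without T1 it called 10. Ndufv3, an accessory subunit of the NADH-binding part of complex I, led with 147, 142 and 90.2 CPM against 56.9, 51.9 and 40.9 CPM (log2 fold change 1.20 ± 0.13, edgeR adjusted p 2.7e-08). The lowest Cd4 level of Ndufv3 lay above the highest other B level. Ndufa5, Ndufa8, Atp5j, Ndufb6 and Ndufa1 followed between 0.57 and 0.73. Ndufs8, an iron-sulfur subunit of complex I, was the 1 called lower (-0.37 ± 0.14). Of the 13 mitochondrially encoded subunits 11 were lower and 0 higher (12 and 0 unadjusted, 11 and 0 by DESeq2), and of 14 glycolysis genes 10 were higher.

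Among the T classes few members differed. Cd8b1 against Cd4 barcodes gave 1 higher member, the complex I subunit Ndufa10 (106, 108 and 92.1 CPM against 79.2, 91.3 and 70.3 CPM), and 0 lower by edgeR (8 and 0 unadjusted, 2 and 0 by DESeq2), where 3.02% of all genes were higher and 4.35% lower. Trdc against Cd4 gave 2 higher, Ndufa4 (375, 296 and 301 CPM against 249, 204 and 176 CPM) and Ndufb2 of complex I (101, 92.1 and 76.4 CPM against 68.6, 68.1 and 36.7 CPM), and 0 lower (6 and 0 unadjusted, 4 and 0 by DESeq2), where 4.05% were higher and 3.88% lower. Foxp3 against Cd4 gave 0 higher and 2 lower (2 and 8 unadjusted, 0 and 2 by DESeq2), where 5.55% were higher and 4.06% lower. These were Cox7a2l (568, 474 and 527 CPM against 589, 583 and 665 CPM, log2 fold change -0.45 ± 0.14) and the catalytic ATP synthase subunit Atp5b (316, 439 and 308 CPM against 475, 430 and 354 CPM, -0.41 ± 0.13). Atp5b was not lower in CPM in T1. All of these calls were lost in the fit without C, the fit without T1 and the fit without T3. Against Cd4 barcodes, in the Foxp3 class 9 of 13 mitochondrially encoded subunits were lower and 0 higher (12 and 0 unadjusted, 9 and 0 by DESeq2), beside 75 of 90 ribosomal protein genes. In CPM the summed members of Foxp3 barcodes stood at 1.04, 1.05 and 1.22 times the Cd4 level in C, T1 and T3. Without ribosomal protein genes in the total the ratios were 0.89, 0.918 and 1.02, so the direction depends on the total.

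Libraries were then compared within each class, T1 against C first. Between 2 libraries a member was read only with 100 or more UMIs in their sum, and it passed as higher or lower when its CPM ratio reached 1.5-fold and its exact 95% interval left out a ratio of 1. Between 66 and 79 members could be read in each class, and 0 to 2 passed. In plasma barcodes 1 was higher, Ndufs4 of complex I with 166 CPM in T1 and 107 CPM in C, where 4.24% of all genes were higher and 6.36% lower. In germinal centre barcodes 1 was lower, Ndufs6 with 106 and 160 CPM, where 4.24% were lower and 4.79% higher. Ndufaf1 and Ndufa5 were lower in other B barcodes (4.14% of all genes lower and 1.65% higher) and Ndufb3 in Foxp3 barcodes (4.07% lower and 7.55% higher). Cd4 and Trdc barcodes had 0 in either direction, beside 1.89% and 4.72% of all genes lower and 4.67% and 2.3% higher. At a 2-fold limit 0 members passed in any of the 7 classes. In plasma, germinal centre, other B, Cd4, Cd8b1, Trdc and Foxp3 barcodes that limit was passed as higher by 1.1%, 0.573%, 0.358%, 1.39%, 0.386%, 0.334% and 2.5% of all genes, and as lower by 2.12%, 0.688%, 0.656%, 0.29%, 1.87%, 1.19% and 1.21%.

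In Cd8b1 barcodes the summed members were lower in T1 than in C by 0.20 on the log2 scale (interval -0.22 to -0.17), and Ndufb7 and Ndufs5 passed as lower, beside 11.4% of all genes lower and 2.09% higher. Ndufb7 had 178 CPM in C and 104 CPM in T1, and Ndufs5 117 and 69.5 CPM. The median over all genes was -0.18 in the same comparison and that over the members -0.22, and after division by the median of all genes the summed difference was -0.01. With ribosomal protein genes also left out of the total it was -0.01.

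Against C, the summed members were lower in T3 in all 5 classes with enough barcodes, most in Trdc and least in Foxp3 barcodes. The comparisons with T1 and with T3 share library C. Summed over the members, T3 over C on the log2 scale was -0.28 (interval -0.30 to -0.26) in other B, -0.44 (-0.46 to -0.41) in Cd4, -0.48 (-0.51 to -0.46) in Cd8b1, -0.62 (-0.68 to -0.56) in Trdc and -0.21 (-0.26 to -0.15) in Foxp3 barcodes. As folds, C stood 1.21, 1.35, 1.40, 1.53 and 1.15 times above T3.

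By single members, 30 of 73 were lower in Cd4 barcodes, where 13% of all genes were lower, 33 of 73 in Cd8b1 (17.8%) and 37 of 71 in Trdc (19.4%). In other B barcodes 8 of 79 were lower (5.8% of all genes) and in Foxp3 8 of 41 (9.87%). In none of these classes was a member higher, beside 14.9%, 12.1%, 9.94%, 10.8% and 9.17% of all genes higher in other B, Cd4, Cd8b1, Trdc and Foxp3. The median log2 ratio of the members was -0.33, -0.54, -0.57, -0.66 and -0.16 in these classes in that order, against 0.08, -0.02, -0.11, -0.14 and -0.003 over all genes. Of the members lower in Cd4, 21 were also lower in Cd8b1, which is 70.0% of the Cd4 and 63.6% of the Cd8b1 members. The overlap over all genes was not counted, so this is not read as a result about the members. Both comparisons also use libraries C and T3. At a 2-fold limit 4, 1 and 15 members were lower in Cd4, Cd8b1 and Trdc, and 0 in other B and Foxp3, beside 2.96%, 5.03%, 13%, 1.42% and 2.23% of all genes in that order. None was higher at that limit, beside 3.14%, 2.63%, 5.51%, 2.52% and 3.64% of all genes.

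**Figure D4:**
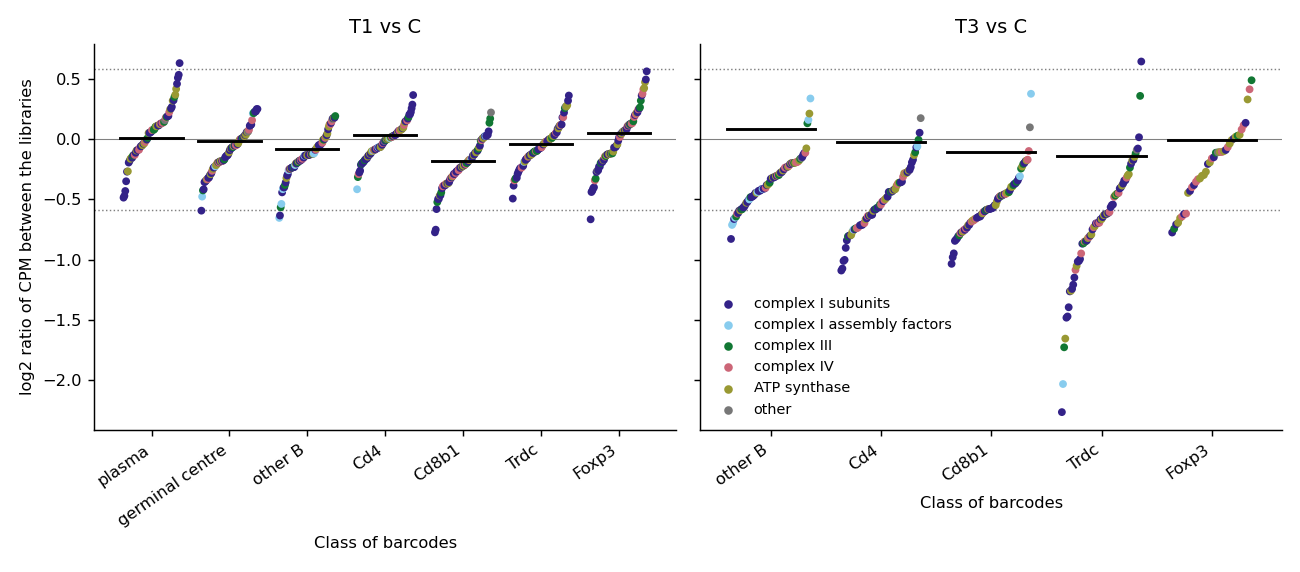
Log2 ratio of CPM between libraries for each member with at least 100 UMIs (points, coloured by complex and sorted within a class), T1 against C on the left and T3 against C on the right; black bars are medians over all genes and dotted lines 1.5-fold. In the right panel 71 of 73 Cd4, 71 of 73 Cd8b1 and 68 of 71 Trdc members lie below 0.

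By complex, against 13% of all genes lower in Cd4 and 17.8% in Cd8b1 barcodes, the counts were as follows. In Cd4 barcodes 17 of 36 complex I subunits were lower, 2 of 8 complex III members, 5 of 11 complex IV members and 5 of 15 ATP synthase members, and in Cd8b1 barcodes 19 of 36, 2 of 8, 7 of 11 and 5 of 15. The complex III counts, 2 of 8 in both, are too few to be set apart from these shares. Among the 4 complexes the summed level of complex III differed least, by -0.29 in Cd4 and -0.35 in Cd8b1 barcodes on the log2 scale, against -0.53 and -0.59 for complex I, -0.51 and -0.53 for complex IV and -0.43 and -0.50 for ATP synthase. The intervals of complex III (-0.36 to -0.22 in Cd4 and -0.43 to -0.28 in Cd8b1) did not reach those of complex I (-0.57 to -0.48 and -0.64 to -0.54). Uqcrh makes up a large part of the complex III count and stood at 772 CPM in C and 716 CPM in T3 in Cd4, and at 809 and 683 CPM in Cd8b1 barcodes. Cox7a2l, in contrast to the subunits, had 589 and 665 CPM in Cd4 and 624 and 668 CPM in Cd8b1 barcodes of C and T3.

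Ndufb7, a subunit of the membrane arm of complex I, was among the 5 with the largest difference in 4 of the 5 classes. It had 157, 141 and 73.9 CPM in Cd4 barcodes of C, T1 and T3 (log2 ratio of T3 to C -1.09, interval -1.37 to -0.81), 178, 104 and 99.7 CPM in Cd8b1, 210, 174 and 128 CPM in Foxp3 and 118, 100 and 74.3 CPM in other B barcodes. Its T3 value was the lowest in each of these classes, while in Cd8b1 T1 and T3 did not differ beyond counting error. In Cd4 barcodes the complex I subunits Ndufc1 (82.9 and 39.4 CPM in C and T3), Ndufb4 (94.5 and 46.9 CPM), Ndufb9 (154 and 77.0 CPM) and Ndufb2 (68.6 and 36.7 CPM) came next. In Cd8b1 barcodes Ndufa12 (114 and 55.7 CPM), Ndufs5 (117 and 59.3 CPM), Ndufv2 (98.8 and 51.2 CPM) and Ndufa13 (355 and 198 CPM) led.

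In Trdc barcodes the largest ratios rest on few molecules of the 51 barcodes of T3. Ndufs5 had 5 UMIs in T3 and 192 in C, or 25.5 and 123 CPM (log2 ratio -2.27, interval -3.91 to -1.02), and Uqcr11 had 9 and 238 UMIs, or 45.9 and 152 CPM. Atp5o, which links the stalk of ATP synthase to its head, had 13 and 327 UMIs, or 66.2 and 209 CPM. The assembly factor Ndufaf8 had 3 and 98 UMIs, with a log2 ratio of -2.03 (interval -4.34 to -0.44). In Foxp3 barcodes Ndufv3 (203 and 119 CPM in C and T3), Uqcr10 (210 and 125 CPM), Atp5o (213 and 132 CPM) and Atp5c1 (339 and 215 CPM) passed beside Ndufb7. In other B barcodes Ndufa5 (60.8 and 34.2 CPM), Ndufaf8 (58.0 and 35.8 CPM), Uqcrfs1, the Rieske protein of complex III (134 and 86.0 CPM), and Cox5b (267 and 174 CPM) did.

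Against T1, which went through the same AOM and DSS course, the median ratio of the members in T3 was also below 0 in each of these classes. Of 74 members in Cd4 barcodes 30 were lower, in Cd8b1 6 of 72, in Trdc 21 of 42, in Foxp3 8 of 66 and in other B 1 of 78, with 0 higher in each. Of all genes 15.6%, 5.65%, 15.7%, 9.97% and 2.58% were lower and 10.1%, 13.7%, 11%, 8.47% and 17.1% higher in these classes in that order. The medians over the members were -0.48, -0.31, -0.58, -0.27 and -0.24, against -0.06, 0.06, -0.04, -0.06 and 0.18 over all genes. Only in Cd4 and Trdc barcodes were the counts of lower members well above the share of all genes. In Cd8b1 and Foxp3 barcodes they were near that share, and in other B below it.

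The mitochondrially encoded subunits were not lower in T3. In Cd4 barcodes 2 of 13 were higher and 0 lower, and their sum was 0.17 above C on the log2 scale. In Cd8b1 and Trdc barcodes 0 of 12 passed in either direction, with sums 0.19 and 0.18 above C. The list of mitochondrial ribosomal proteins had 18 of 53 members lower in Cd4, 21 of 55 in Cd8b1 and 8 of 30 in Trdc barcodes, with sums at -0.46, -0.44 and -0.63, where 13%, 17.8% and 19.4% of all genes were lower. Glycolysis genes were lower for 2 of 12 in Cd4, close to the 13% of all genes, and for 6 of 12 in Cd8b1 barcodes, with sums at -0.60 and -0.61.

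Several measures moved with T3. The median UMI count per barcode was 6108, 6424 and 4823 in Cd4 and 6305, 7335 and 6092 in Cd8b1 barcodes of C, T1 and T3. It was 4584, 4962.5 and 3408 in other B, 6112, 6162 and 4492 in Trdc and 4930.5, 6057 and 4437 in Foxp3 barcodes. Haemoglobin UMIs summed to 511 CPM in Cd4 and 3589 CPM in Cd8b1 barcodes of T3 and to 0 CPM in both classes of C, and the neutrophil genes S100a8, S100a9 and Retnlg to 49.5 and 1031 CPM. Left without every barcode with a haemoglobin UMI, T3 kept 239 other B, 139 Cd4 and 101 Cd8b1 barcodes. T3 over C was then -0.26 in other B, -0.45 in Cd4 and -0.48 in Cd8b1 barcodes, beside -0.28, -0.44 and -0.48 in all barcodes. With barcodes of at least 3000 UMIs only, it was -0.22, -0.42 and -0.48. With ribosomal protein genes also left out of the total it was -0.32, -0.35 and -0.28. The part of haemoglobin, neutrophil transcripts or depth in the T3 difference was not tested.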

How the data were processed

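UMI counts per gene and barcode were deposited by the authors as whole numbers, 1 matrix per library. Per the submitters' processing notes, CASAVA 1.8, Cell Ranger 3.1.0, Seurat 3.1.4 and build GRCm38 were used, with no roles given. Barcodes with at least 200 genes and at most 20% mitochondrial UMIs were gated on marker UMIs. B barcodes carried UMIs of at least 2 B cell markers, Cd79a, Cd79b and Ms4a1 among them, and no CD3 UMI. Plasma barcodes had at least 10% immunoglobulin constant and Jchain UMIs and at least 2 of Sdc1, Tnfrsf17, Derl3, Prdm1, Txndc5 and Xbp1. Germinal centre barcodes were B barcodes with UMIs of at least 2 germinal centre markers, Rgs13, Mef2b, S1pr2, Gcsam and Bcl6 among them. T barcodes had a CD3 UMI and no UMI of B cell markers such as Cd79a and Ms4a1, and carried 1 of Foxp3, Cd4, Cd8b1 and Trdc, except that Foxp3 barcodes could also carry Cd4. No doublet caller was run. Some markers and a split of the T classes are not reported here.

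Class contrasts used edgeR 4.0.16 (R 4.3.3; quasi-likelihood test, library as block, 19 class and library sums of at least 20 barcodes, 10 residual degrees of freedom) with Benjamini-Hochberg adjustment over 10364 genes, and DESeq2 1.42.0 as an alternative. These p-values measure the spread between sums of 3 libraries, whose sampling from separate mice the labels do not state. Sums over all genes were scaled by TMM factors in edgeR. Library contrasts have no test. Their exact 95% intervals, like the Poisson intervals, cover counting error only. On simulated counts for germinal centre against other B (9922 genes), 100 genes were changed 1.5-fold and 100 changed 2-fold. There edgeR called 12% and 57% of these, and 0.411% of unchanged genes. In the data 20.4% of genes were called higher and 22.3% lower in this contrast. The adjustment is stricter where few genes change, so the simulated percentages do not carry over to the data. Promoters came from RefSeq (GRCm38.p6), and gene positions from the GRCm38 annotation. Python 3.11.15 with numpy 2.4.6, scipy 1.17.1, pandas 2.3.3 and matplotlib 3.10.9 was used.

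Members named are the 6 called with the largest fold each way in a class contrast, the 5 past 1.5-fold with the largest ratio each way in a library contrast, those with a tissue-restricted partner and the member of each complex with the most UMIs. The members and lists were chosen with earlier results of these data known. The ribosomal protein list and the splits by Mki67 or Top2a and by UMI count were added after the data were seen.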

Additional observations from a re-analysis of the deposited data

Results flagged for a closer look

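The summed members of T1 against C went in opposite directions in different classes. The log2 ratio was 0.0723 in plasma barcodes, and it was -0.0870 in germinal centre, -0.0589 in other B, -0.195 in Cd8b1 and -0.0405 in Trdc barcodes. There is 1 library per group, so the difference between classes was not tested.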

How the results depend on the processing

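Without the replicate block for the library, edgeR called 59 members in plasma and 50 in germinal centre against other B barcodes, 7 in Cd4 against other B, and 0 in each contrast of Cd8b1, Trdc and Foxp3 with Cd4. Leaving out 1 library at a time gave 45 to 61, 35 to 58 and 10 to 24 calls in the first 3 contrasts and 0 in the others. Of the contrasts with Cd4, DESeq2 called 2 members in Cd8b1 and 4 in Trdc, no filter on low counts gave 1 in Trdc, and a fit of only the classes compared gave 1 in Trdc and 1 in Foxp3.

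At a 2-fold limit 0 members passed for T1 in plasma, germinal centre, other B, Cd8b1 and Foxp3 barcodes, and for T3 4 passed in Cd4, 1 in Cd8b1, 15 in Trdc and 0 in other B and Foxp3. With at least 20 UMIs in place of 100, 2 passed for T1 in plasma, 3 in germinal centre and, for T3, 14 in Foxp3 barcodes. Over all UMIs 3 passed for T1 in plasma barcodes.

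The log2 ratio of the summed members stayed below 0 in T3 under every setting tried in the 5 classes. For T3 in other B it was -0.256 with stricter gates, -0.259 without barcodes with haemoglobin UMIs, -0.224 with at least 3000 UMIs, -0.323 without ribosomal protein genes in the total, -0.363 after division by the median ratio of all genes and -0.403 with barcodes weighted equally. Without ribosomal protein genes T3 stood at -0.347 in Cd4, -0.283 in Cd8b1 and -0.491 in Trdc. Division by the median gave -0.377 in Cd8b1 and -0.476 in Trdc, and equal weights gave -0.495 in Cd4 and -0.365 in Foxp3. The setting without haemoglobin barcodes left under 20 barcodes in Trdc and Foxp3 of T3 and was not run there.

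For T1 the ratios were small, and in other B, Cd4, Trdc and Foxp3 barcodes some changed sign. Other B was 0.0199 after division by the median and 0.00395 without ribosomal protein genes, and Trdc 0.0159 without them. The cause was not tested. From 0.00841 in Cd4 and 0.0297 in Foxp3, T1 values after division by the median were -0.0238 in Cd4 and -0.0197 in Foxp3, and they were -0.0148 in Cd8b1 and -0.00272 in Trdc. Without ribosomal protein genes they were 0.131 in plasma, -0.0218 in Cd4 and -0.00763 in Cd8b1. With equal weights they were -0.0472 in germinal centre, -0.0888 in other B, -0.0120 in Cd4, -0.162 in Cd8b1, -0.0916 in Trdc and -0.0369 in Foxp3. Over all UMIs they were 0.155 in plasma and -0.125 in germinal centre barcodes. With at most 10% mitochondrial UMIs they were 0.0280 and -0.0530, and without haemoglobin barcodes germinal centre stood at -0.0512.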
